A study of Mus musculus with 9 samples.

Results

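The genes described here are 10 that are used to tell arterial from venous endothelium: Efnb2, Gja4, Gja5, Unc5b, Sox17, Bmx, Ephb4, Nr2f2, Apln and Aplnr. They were chosen by name, with earlier results of these data known, and make up 10 of the 52636 genes counted. Thyroid glands of male C57BL/6 mice aged 10 to 14 weeks by the protocol (10 to 12 by the design text) were dissociated and profiled by droplet single-cell RNA sequencing (10x Genomics 3′ chemistry, version 2) 7 days after 1 intraperitoneal injection of antibody. Each of the 9 samples was a pool of thyroids from 6 mice, and each of the 3 groups held 3 samples. The control group, RW, received anti-ragweed, an isotype control antibody, at 40 mg/kg. The ligand-blocked group, aJ1aJ2, received antibodies against the Notch ligands Jag1 and Jag2 at 20 mg/kg each, and the receptor-blocked group, aN1aN2, received antibodies against Notch1 at 5 mg/kg and Notch2 at 10 mg/kg. Every mouse received an antibody, so no sample was untreated. The comparison asks how genes of arteriovenous identity stood in the endothelial cells of the thyroid after the ligands or the receptors of the Notch pathway were blocked.

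Notch receptors are cleaved when a Jagged or Delta-like ligand on a neighbouring cell binds them, and the freed intracellular part acts with the DNA-binding protein RBPJ to switch on target genes. In blood vessels this pathway is known for promoting arterial and restraining venous identity, and in sprouting vessels it limits the number of tip cells. The membrane ligand ephrin-B2 (Efnb2) on arterial cells and its receptor EphB4 (Ephb4) on venous cells are the classical pair that separates the 2 fates. Of the other arterial genes, Gja4 and Gja5 encode connexins 37 and 40 of gap junctions, Unc5b encodes a netrin receptor, Sox17 a transcription factor and Bmx a Tec-family tyrosine kinase. Nr2f2 encodes COUP-TFII, a nuclear receptor that represses arterial genes in veins and is also needed for lymphatic endothelium. Apln encodes the peptide apelin, which sprouting endothelial cells secrete, and Aplnr encodes its receptor, which is known from veins and from capillaries.

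The cells carried the submitters' own labels, which named 16 clusters. The endothelial labels EC1, EC2, EC3 and EC4 held 1603, 409, 365 and 1046 of the 10186 cells. Median depth per cell was 3994 UMIs (unique molecular identifiers, each standing for 1 captured transcript) in EC1, 2757 in EC2, 4624 in EC3 and 1045.5 in EC4. Each sample gave 165 to 660 endothelial cells and 639408 to 2864336 endothelial UMIs. All 12 of the general endothelial markers checked had UMIs in the summed endothelial cells of every sample. Values below are sums of UMIs over the cells of 1 label in 1 sample, given as CPM, the share of a sum's UMIs scaled to 1e+06, with library size adjusted by the TMM method. Because the reads come from the 3′ ends of transcripts, CPM values are compared between samples and labels for 1 gene and not between genes. Replicates are pools of animals, so the p-values measure the spread between pools. The titles carry sample numbers in 3 separate runs, called series A, B and C here, which may or may not mark batches. Series A held RW 3 and aJ1aJ2 1, series B held RW 1 and 2 and aJ1aJ2 3 and 4, and series C held the aN1aN2 samples and no other group. Receptor blockade and series C therefore cannot be told apart in any comparison of aN1aN2 below. In these sums, fewer cells of a kind and less RNA per cell cannot be told apart either.

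On the mouse build GRCm38 the arterial genes lie at chr8:8617434-8661242 (Efnb2, minus strand), chr4:127311421-127314039 (Gja4, minus strand), chr3:96904693-97077416 (Gja5, plus strand), chr10:60762593-60831581 (Unc5b, minus strand), chr1:4490931-4497354 (Sox17, minus strand) and chrX:164192842-164258193 (Bmx, minus strand). The venous and apelin genes lie at chr5:137350109-137378669 (Ephb4, plus strand), chr7:70351944-70366735 (Nr2f2, minus strand), chr2:85136225-85139923 (Aplnr, plus strand) and chrX:48025146-48034853 (Apln, minus strand). Exons of Gja5, Sox17, Ephb4 and Nr2f2 overlap exons of a gene on the opposite strand, by 165 bases with Gpr89, 804 with Gm37587, 33 with Zan and 643 with B130024G19Rik. Whether the counting used strand is not given in the sources used here, so reads from those stretches cannot be assigned to 1 gene of each pair.

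The 250 bases upstream of the transcription start are shown for 5 genes, since Efnb2, Gja4 and Unc5b fell and Ephb4 and Nr2f2 rose together under receptor blockade. The sequences are RefSeq's for GRCm38.p6, 5′ to 3′ on the strand of the gene. Capitals mark GGGCGG (the core of a GC box) and CCAAT, on either strand.

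Efnb2, chr8:8661243-8661492, minus strand: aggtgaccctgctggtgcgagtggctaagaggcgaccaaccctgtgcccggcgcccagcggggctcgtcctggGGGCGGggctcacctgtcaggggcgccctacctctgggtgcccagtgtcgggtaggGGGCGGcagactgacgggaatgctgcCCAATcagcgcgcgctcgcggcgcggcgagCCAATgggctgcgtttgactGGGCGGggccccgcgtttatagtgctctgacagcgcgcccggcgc
Gja4, chr4:127314040-127314289, minus strand: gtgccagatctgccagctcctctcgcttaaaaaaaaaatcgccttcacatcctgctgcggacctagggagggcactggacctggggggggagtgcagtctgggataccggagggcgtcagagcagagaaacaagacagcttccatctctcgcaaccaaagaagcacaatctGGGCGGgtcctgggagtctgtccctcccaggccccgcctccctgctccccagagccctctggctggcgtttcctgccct
Unc5b, chr10:60831582-60831831, minus strand: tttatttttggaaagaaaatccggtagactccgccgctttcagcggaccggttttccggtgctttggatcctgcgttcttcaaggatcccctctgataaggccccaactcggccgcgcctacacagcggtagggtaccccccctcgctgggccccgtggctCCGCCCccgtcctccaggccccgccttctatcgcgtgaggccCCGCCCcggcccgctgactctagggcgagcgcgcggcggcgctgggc
Ephb4, chr5:137349859-137350108, plus strand: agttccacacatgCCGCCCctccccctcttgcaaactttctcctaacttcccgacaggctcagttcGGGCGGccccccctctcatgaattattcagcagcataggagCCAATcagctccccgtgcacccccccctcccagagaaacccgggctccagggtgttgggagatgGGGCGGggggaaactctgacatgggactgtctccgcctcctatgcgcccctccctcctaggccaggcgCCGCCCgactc
Nr2f2, chr7:70366747-70366996, minus strand: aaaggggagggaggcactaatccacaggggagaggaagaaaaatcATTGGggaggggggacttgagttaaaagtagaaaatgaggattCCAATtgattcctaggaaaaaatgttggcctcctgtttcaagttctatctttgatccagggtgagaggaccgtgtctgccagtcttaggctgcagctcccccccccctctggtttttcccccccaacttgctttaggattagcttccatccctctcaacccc

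Efnb2 held GGGCGG at 3 places and CCAAT at 2, Ephb4 held them at 4 and 1, Unc5b held GGGCGG at 2 and Gja4 at 1. Nr2f2 held CCAAT at 2 places and no GGGCGG. Over all 32851 mouse promoters of the same length, 32.7% held GGGCGG and 33.8% held CCAAT on either strand. The windows also differed in base composition, with 72% G and C in Efnb2, 66.8% in Unc5b, 64% in Ephb4, 61.2% in Gja4 and 50% in Nr2f2, against a median of 52.4% over all promoters. Letters associated with the RBPJ protein were searched as TGGGAA and as GTGGGAA, which contains TGGGAA. The SOX letters were AACAAT and the nuclear receptor letters AGGTCA, all on both strands. Of the 8 members with a RefSeq promoter, only Bmx held any of these, a TGGGAA 178 bases upstream of its start. TGGGAA was in 21.6% of all promoters, GTGGGAA in 5.42%, AACAAT in 9.42% and AGGTCA in 14%. A match describes letters in this window, and its absence says only that those letters are not in it.

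In control mice the fate genes were spread unevenly over the endothelial labels, and EC3 carried the highest levels of most arterial genes. The labels were made from the same cells and genes, so these levels are a description with no test. For this comparison CPM were scaled jointly over the labels, EC2 had 2 RW samples and the other labels 3. Bmx averaged 109 CPM in the EC3 cells of RW samples (79.7 to 143), against 0.951 in EC1, 0 in EC2 and 2.28 in EC4. Gja5 averaged 40.5 CPM in EC3 (26.0 to 61.2), against 1.61, 4.95 and 5.94 in EC1, EC2 and EC4. Gja4 stood at 251 CPM in EC3 (143 to 306), followed by EC1 at 61.1 (49.4 to 72.4), EC4 at 21.6 (13.7 to 29.1) and EC2 at 9.89 (0 to 19.8). The 3 highest labels did not overlap for Gja4, whereas EC4 and EC2 did. Sox17 ranked EC3 first at 352 CPM (226 to 485), then EC2 at 186 (179 to 193), with EC4 at 52.9 (33.0 to 82.0) and EC1 at 46.5 (38.6 to 59.6) overlapping at the bottom.

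Efnb2 and Unc5b, which are also classed as arterial, did not follow that order. Efnb2 averaged 305 CPM in EC4 (232 to 341), 282 in EC1 (258 to 303), 230 in EC3 (224 to 241) and 173 in EC2 (109 to 238), and only EC1 stood apart from EC3 and EC2 in all samples. Unc5b averaged 53.5, 54.9, 56.3 and 53.8 CPM in EC1 to EC4, nearly the same level in each. On the venous side, Ephb4 was highest in EC4 at 182 CPM (167 to 191) and EC1 at 173 (157 to 183), which overlapped. Its means were lower in EC2 at 133 (104 to 162) and EC3 at 104 (94.4 to 121), which also overlapped. The higher EC2 sum lay within the range of EC1, so EC2 was not set apart from it. The other venous regulator, Nr2f2, was highest in EC3, the label with the most arterial transcripts, at 235 CPM (163 to 314). It followed at 97.2 in EC2 (51.0 to 143), 29.2 in EC4 (0 to 44.0) and 20.1 in EC1 (15.7 to 23.2).

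The apelin receptor was nearly absent from EC3. Aplnr averaged 17.0 CPM in the RW sums of EC3 (7.65 to 24.9), against 370 in EC4 (209 to 458), 242 in EC2 (162 to 321) and 213 in EC1 (195 to 225). EC4, EC2 and EC1 overlapped with each other, and all 3 lay above EC3 in every RW sample. Apln was sparse everywhere, at 28.7 CPM in EC2 (14.8 to 42.5) and between 5.72 and 7.63 in the other labels. Under receptor blockade some of these orders differed, with Gja4 averaging 136 CPM in EC3, 64.9 in EC2, 4.45 in EC1 and 4.13 in EC4, Unc5b at 25.8 in EC3 and 3.50 to 8.60 elsewhere, and no Apln UMI in EC2.

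**Figure D1:**
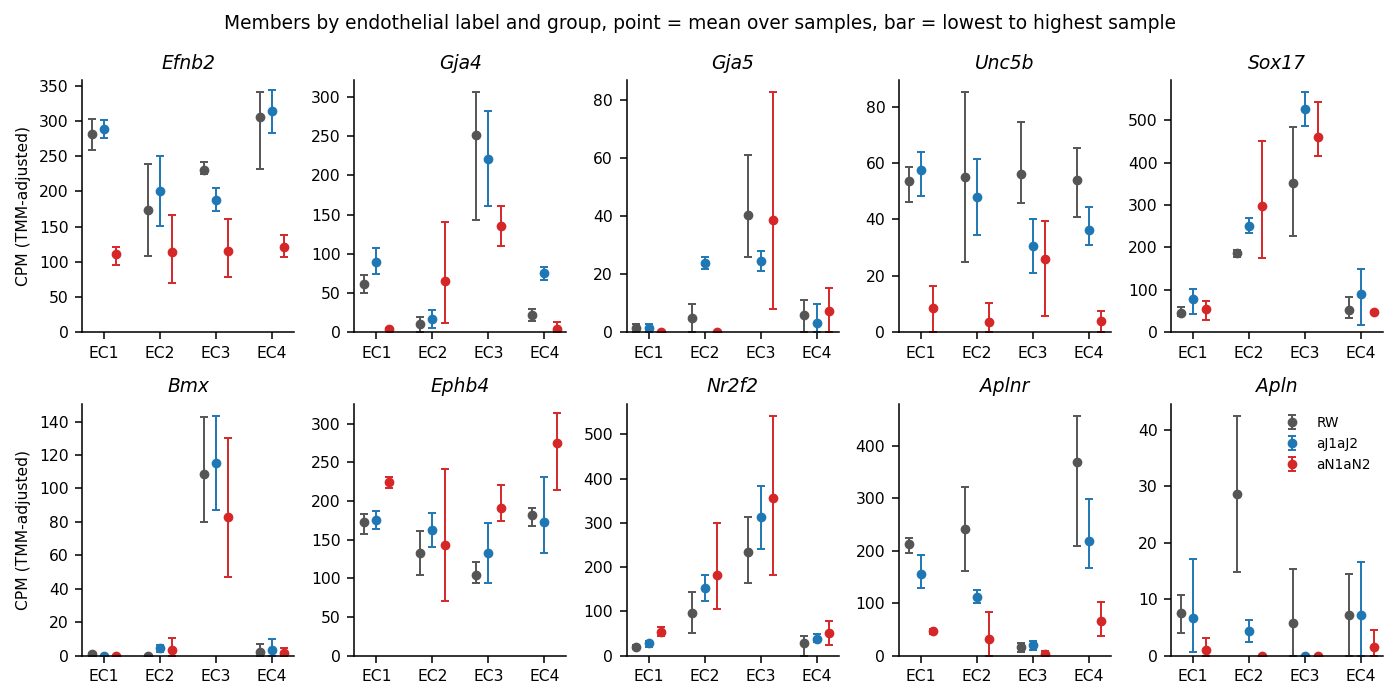
Level of each of the 10 genes (vertical axis, CPM scaled jointly over labels) in EC1 to EC4 (horizontal axis), with a point at the group mean and a bar from the lowest to the highest sample, coloured by antibody group. Gja5, Bmx, Gja4 and Sox17 were highest in EC3 in RW, Aplnr was lowest there, and Unc5b was nearly level over the labels in RW.

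Depth differs between the labels, so the cells of RW samples were also thinned to 1000 UMIs each and the share with at least 1 UMI was counted, leaving 660, 74, 127 and 126 cells in EC1 to EC4. Sox17 was then seen in 30.7% of EC3 cells, 13.5% of EC2, 7.14% of EC4 and 3.48% of EC1. In label Th1, the thyrocytes by their thyroglobulin gene Tg (92030 CPM), it was seen in 0.342% of cells over all groups, taken as the background. Gja4 was seen in 25.2% of EC3 cells, 3.94% of EC1, 2.38% of EC4 and 1.35% of EC2, and in 0.235% of the Th1 cells of RW. Nr2f2 was seen in 18.9% of EC3 cells and 6.76% of EC2, but only 1.82% of EC1 and 1.59% of EC4. Without thinning, the RW shares for EC1 to EC4 were 15.4, 44.4, 51.5 and 5.97% for Sox17, 19.2, 4.94, 51.5 and 2.98% for Gja4, and 9.53, 14.8, 48.5 and 1.49% for Nr2f2, with Sox17 in 3.77% and Gja4 in 4.24% of the Th1 cells of RW (median depth of Th1 12553 UMIs over all groups). After thinning EC3 ranked first for all 3 genes, as in the CPM values, while several of the lower shares rest on 1 to 5 cells.

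EC3 was itself mixed, and the mixture bore on these genes. Transcripts of the lymphatic endothelium were frequent in it, with Ccl21a at 3070 CPM, Mmrn1 at 932 and Prox1, the master regulator of lymphatic fate, at 125 over all EC3 cells. Of 365 EC3 cells, 88 had at least 2 of the lymphatic markers, 70 had 1 and 207 had none. In the 88 cells with 2 or more, Sox17 was at 3.46 CPM (3 UMIs in all), Gja5 had no UMI and Gja4 was at 76.1 CPM, while Nr2f2 reached 542 CPM. The 207 cells with none carried Sox17 at 531, Gja4 at 275, Gja5 at 43.6 and Nr2f2 at 219 CPM. The 70 cells with 1 marker resembled them, with Sox17 at 614, Gja4 at 310 and Nr2f2 at 142 CPM. Bmx did not divide this way, at 103, 98.1 and 114 CPM in cells with 2 or more, 1 and no lymphatic markers. The division was made from the same cells after EC3 was seen to hold lymphatic transcripts, and it carries no test. Efnb2, at 197 CPM in the first class, and Ephb4, at 148 CPM, were present there as well.

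In single cells of EC3, Nr2f2 was found less with some arterial genes and not with others. Nr2f2 had a UMI in 23.7% of EC3 cells that had Sox17 and in 61.7% of those that had none. For Gja4 the shares were 27.2% and 57.6%, and for Gja5 25.5% and 47.1%. With Bmx they were 40% and 46%, and with Efnb2 45.6% and 43%, close to each other. Arterial genes were found together, with Gja4 in 70.4% of Sox17 cells against 21.9% of the rest, and Bmx in 70.6% of Gja5 cells against 25.2%. Efnb2 and its receptor did not exclude each other in EC1, where Ephb4 was in 58.9% of the cells with Efnb2 and 45.4% of those without. Apelin and its receptor coincided in EC1 too, with Aplnr in 22 of the 28 cells with Apln (78.6%) and 35.6% of the others. Cells with more UMIs have more of every gene, so pairs rise together with depth, and these shares are descriptions with no test.

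**Figure D2:**
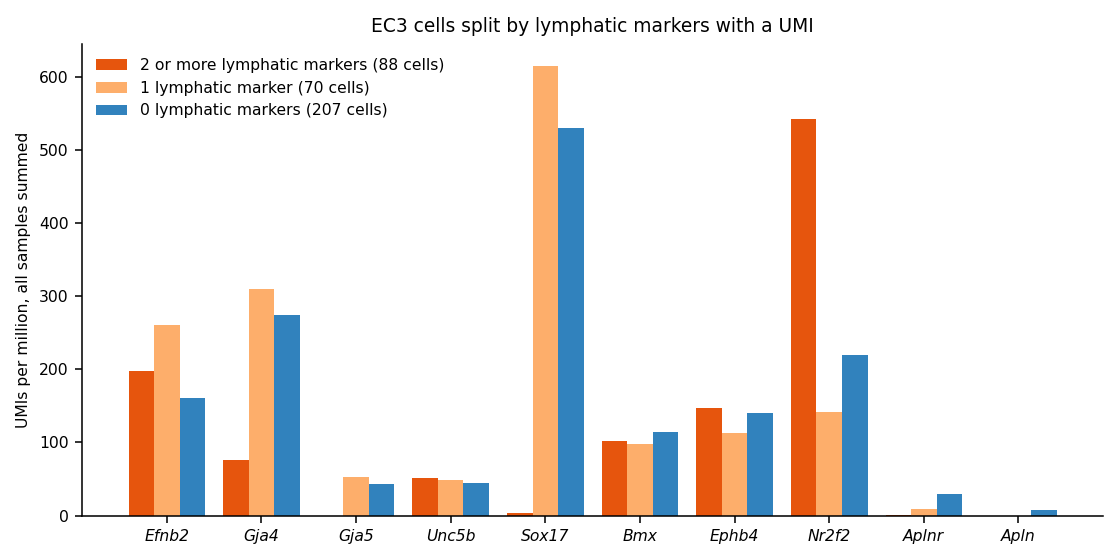
Level (vertical axis, CPM of the plain total over all cells of the class and all samples) of the fate genes in EC3 cells with 2 or more, 1 or no lymphatic marker genes detected. Sox17 fell to 3.46 CPM and Nr2f2 reached 542 CPM in the cells with 2 or more, whereas Bmx stayed between 98.1 and 114 CPM.

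Under receptor blockade the arterial ligand Efnb2, the connexin gene Gja4 and the netrin receptor gene Unc5b fell in the endothelium. Of the 3 venous members, Ephb4 and Nr2f2 rose, and the apelin receptor gene Aplnr fell. In sums over all endothelial labels, 6 of the 10 members passed the test between aN1aN2 and RW (edgeR's quasi-likelihood test, Benjamini-Hochberg adjusted p under 0.05), 4 lower and 2 higher. Among all 10661 genes tested 19.7% passed, 9.44% lower and 10.3% higher. The aN1aN2 sums held a different mix of labels. EC1 made up 24.7 to 32.2% of their endothelial cells, against 50 to 63.4% in RW, and EC4 made up 47.9 to 51.9% against 20.5 to 25.1%. Tests within labels are therefore given afterwards.

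Efnb2 stood at 250, 254 and 235 CPM in RW samples 1, 2 and 3, at 232, 239 and 265 in aJ1aJ2 samples 1, 3 and 4, and at 97.6, 123 and 130 in aN1aN2 samples 1, 2 and 3. All 3 receptor-blocked samples lay well below all 6 others, which overlapped. The fall from 246 ± 10.4 to 117 ± 17.1 CPM (SD, n = 3) was a log2 change of -1.08 (SE 0.12, adjusted p = 2.80e-05). Gja4 stood at 104, 67.2 and 97.0 CPM in RW, 120, 104 and 68.6 in aJ1aJ2, and 23.2, 36.1 and 53.4 in aN1aN2, again with no receptor-blocked sample reaching the others. Its log2 change was -1.29 (SE 0.28, adjusted p = 0.00508). The other connexin, Gja5, gave 10.3, 7.25 and 9.88 CPM in RW and 1.16, 19.4 and 9.43 in aN1aN2. Those groups overlapped, and the log2 change of 0.08 did not pass (adjusted p = 0.939).

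Unc5b was the arterial gene with the largest fall among those that passed. It measured 52.9, 54.1 and 44.1 CPM in RW, 60.5, 40.9 and 53.4 in aJ1aJ2, and 12.8, 9.03 and 9.43 in aN1aN2. The receptor-blocked samples were far below the other 6, at 10.4 ± 2.06 against 50.4 ± 5.46 CPM in RW (SD, n = 3). The log2 change was -2.24 (SE 0.25, adjusted p = 2.22e-05). Sox17 went the other way without passing, at 118, 94.7 and 115 CPM in RW and 117, 213 and 159 in aN1aN2. One receptor-blocked sample lay within the control range, and the log2 change was 0.57 (SE 0.23, adjusted p = 0.107). It passed in 6 of 21 alternatives, among them with no filter (0.50, adjusted p = 0.00838), without aJ1aJ2 1 (0.56, adjusted p = 0.0302), with only RW and aN1aN2 in the fit (0.56, adjusted p = 0.0398) and without EC4 (0.78, adjusted p = 0.0348). Bmx gave 23.1, 21.8 and 20.1 CPM in RW and 9.29, 28.4 and 17.3 in aN1aN2, which overlapped (log2 change -0.25, adjusted p = 0.654). The lymphatic marker sum of the summed endothelium ran from 412 to 1056 CPM in RW, 874 to 4994 in aJ1aJ2 and 376 to 571 in aN1aN2. With cells carrying 2 or more lymphatic markers left out, none of Sox17, Gja5 and Bmx passed either.

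Of the venous genes, Ephb4 rose in each receptor-blocked sample. It measured 149, 150 and 138 CPM in RW, 164, 151 and 169 in aJ1aJ2, and 253, 219 and 199.5 in aN1aN2. No aN1aN2 sample overlapped the others, and the means of 224 ± 27.2 and 146 ± 6.81 CPM (SD, n = 3) gave a log2 change of 0.63 (SE 0.12, adjusted p = 0.00155). Nr2f2 was more variable, at 88.8, 76.9 and 45.2 CPM in RW, 122, 107 and 71.1 in aJ1aJ2, and 144, 90.3 and 137 in aN1aN2. Every receptor-blocked sample was above every control, but within reach of the ligand-blocked ones. Its log2 change against RW was 0.82 (SE 0.26, adjusted p = 0.0373), and the call rested on single samples. Without RW 3, RW 2, aN1aN2 1 or aN1aN2 3 it became 0.56, 0.89, 0.68 or 0.75, with adjusted p of 0.118, 0.0603, 0.182 and 0.128.

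The apelin receptor showed a large fall. Aplnr measured 187, 155 and 175 CPM in RW, 142, 116 and 111 in aJ1aJ2, and 61.6, 31.0 and 33.0 in aN1aN2. The 3 groups did not overlap, with RW highest and aN1aN2 lowest. From RW to aN1aN2 the log2 change was -2.01 (SE 0.21, adjusted p = 9.83e-06). Its ligand Apln had 27, 16 and 10 UMIs in the RW sums and 1, 0 and 1 in aN1aN2. Per UMI sequenced, that is a level 8.22 times higher in RW (95% interval 2.17 to 69.7, counting error only), and the test across pools did not pass (log2 change -2.96, SE 1.10, adjusted p = 0.0752). Apln passed in 5 of 19 alternatives. These were no filter on low counts (-3.03, adjusted p = 0.00212), leaving out RW 3 (-3.33, adjusted p = 0.0430) or aJ1aJ2 1 (-2.97, adjusted p = 0.0207), and RW 1 and 2 against aN1aN2 1 and 2, with replicate number as a block (-3.81, adjusted p = 0.00143) or without it (-3.80, adjusted p = 0.0135).

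**Figure D3:**
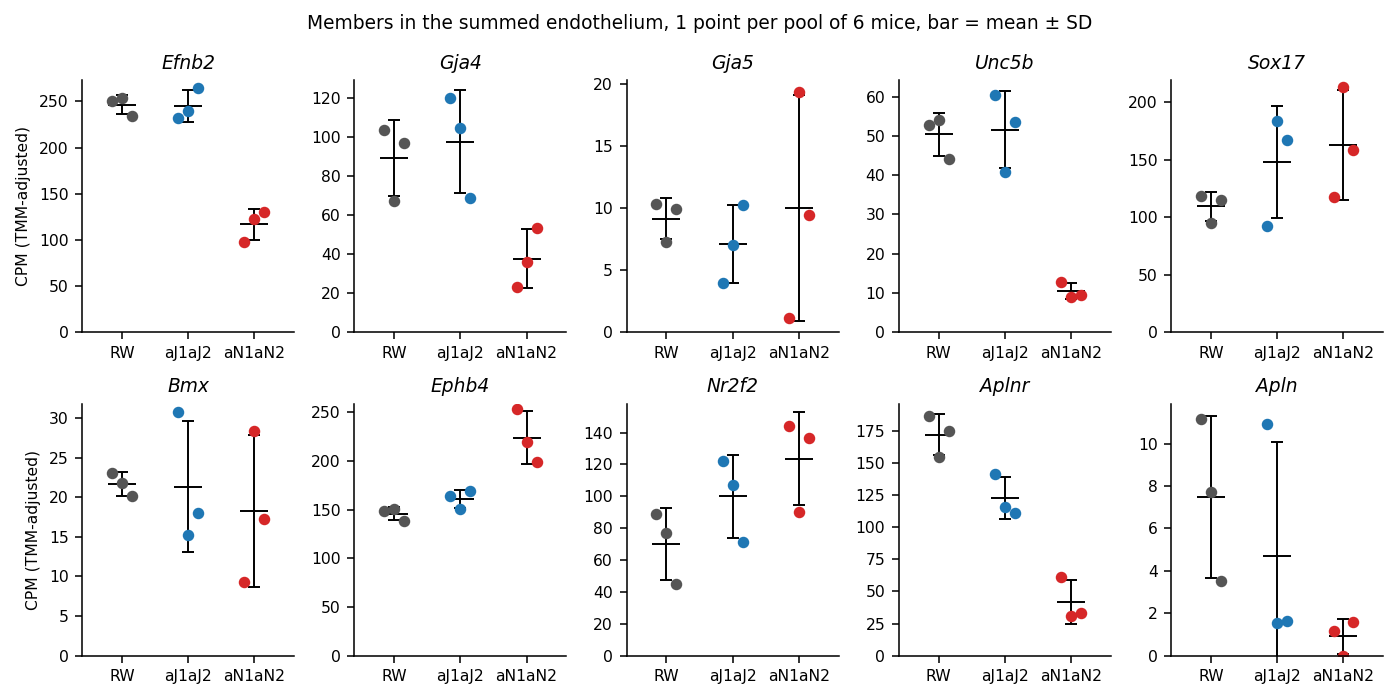
CPM of each gene (vertical axis) in the summed endothelium of every sample (points), with the group mean ± SD (bars), for RW, aJ1aJ2 and aN1aN2. The 3 aN1aN2 points lie below all others for Efnb2, Gja4, Unc5b and Aplnr and above all others for Ephb4.

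Levels of transcripts from other cells moved with the groups in these sums. The 8 macrophage markers summed to 126 to 194 CPM in RW, 20.4 to 69.0 in aJ1aJ2 and 6.46 to 9.28 in aN1aN2, while the 10 members stood at 0 to 1.44 CPM each in label M, whose cells carry the macrophage genes C1qa (4360 CPM) and Lyz2 (8082 CPM). Mural markers, of pericytes and smooth muscle, summed to between 776 and 1247 CPM in RW and between 501 and 962 with receptor blockade. Thyrocyte markers summed to between 800 and 1515 CPM in RW and between 1152 and 1608 with receptor blockade. Mural cells do express 2 members. In label SM, with the smooth muscle gene Acta2 at 11339 CPM, Gja4 was at 228 and Nr2f2 at 460 CPM. With every endothelial cell left out that had at least 2 macrophage, mural, fibroblast, lymphocyte or Schwann cell markers, the same 6 genes still passed in the summed endothelium between aN1aN2 and RW, and Sox17 passed as well (log2 change 0.76, adjusted p = 0.0306).

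Within EC1, the largest endothelial label and the one with high Plvap (3995 CPM) and Emcn (3672 CPM), the changes were the same in direction. There 8 of the 10 genes had enough counts to test, and 6 passed between aN1aN2 and RW, against 17.8% of 9369 genes. Gja4 was nearly lost, from 56.5, 45.6 and 66.0 CPM in RW to 4.52, 5.30 and 3.15 in aN1aN2, which is 293 UMIs against 5 over the 3 sums. The log2 change of -3.66 (SE 0.42, adjusted p = 1.49e-06) was the largest of any member in EC1. Efnb2 fell from 279, 263 and 235 CPM to 92.7, 117 and 113 (log2 change -1.27, SE 0.15, adjusted p = 1.49e-06). Unc5b fell from 51.3, 54.0 and 42.2 CPM to 9.04, 15.9 and 0 (log2 change -2.46, SE 0.41, adjusted p = 0.000153). In each of these 3 arterial genes the receptor-blocked sums lay below all the others.

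Of the 3 venous members, Nr2f2 and Ephb4 rose within EC1 and Aplnr fell. Nr2f2, low in control EC1 cells at 14.5, 19.8 and 21.1 CPM, reached 63.3, 50.4 and 44.1 in aN1aN2, above all 6 other sums (log2 change 1.51, SE 0.26, adjusted p = 0.000257). Ephb4 rose from 164, 169 and 143 CPM to 224, 217 and 214 (log2 change 0.47, SE 0.13, adjusted p = 0.0161). That call was lost without aN1aN2 1 (0.44, adjusted p = 0.0752) and without aN1aN2 2 (0.47, adjusted p = 0.0528), with no filter on low counts (0.39, adjusted p = 0.0983) and with equal numbers of cells (0.41, adjusted p = 0.0807). Aplnr fell from 202, 208 and 178 CPM to 49.7, 45.1 and 40.9 (log2 change -2.09, SE 0.20, adjusted p = 1.34e-07). Sox17 overlapped between the groups, at 35.5, 38.0 and 54.3 CPM in RW and 27.1, 71.6 and 59.8 in aN1aN2. The thyrocyte marker sum of EC1 lay between 713 and 985 CPM in RW and between 1332 and 1949 with receptor blockade, and Nr2f2 is also expressed in the label Th1 (62.1 CPM over its cells). Fibroblast markers of EC1 ran from 35.8 to 156 CPM in RW and from 66.5 to 630 with receptor blockade, and label F, rich in fibroblast genes, expresses Nr2f2 at 141 CPM. Without cells carrying 2 or more macrophage, mural, fibroblast, lymphocyte or Schwann cell markers, Nr2f2 in EC1 still passed, and the part of thyrocyte transcripts was not tested.

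EC4, whose cells are shallow but carry Plvap at 3739 CPM, had 4 members with enough counts, and 2 of them passed, against 21.1% of 3101 genes. Efnb2 fell from 247, 382 and 366 CPM in RW to 106, 120 and 143 in aN1aN2 (log2 change -1.43, SE 0.25, adjusted p = 0.000107). Aplnr fell from 486, 234 and 475 CPM to 101, 37.9 and 63.5 (log2 change -2.53, SE 0.32, adjusted p = 1.13e-06). Both genes separated all control from all receptor-blocked sums. Ephb4 was higher without overlap with the controls and did not pass (log2 change 0.53, adjusted p = 0.118).

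The 2 smaller labels rested on fewer cells, and sums of under 20 cells were left out. EC3 lacked aJ1aJ2 1, and 2 of its 8 tested members passed, against 5.91% of 6476 genes. Efnb2 fell there from 239, 231 and 220 CPM in RW to 80.8, 108 and 164 in aN1aN2 (log2 change -0.95, SE 0.24, adjusted p = 0.0269). Ephb4 rose from 119, 101 and 92.5 CPM to 226, 180 and 177 (log2 change 0.88, SE 0.24, adjusted p = 0.0449). Both pairs of groups were without overlap, but neither call held with DESeq2 (adjusted p = 0.0851 for Efnb2 and 0.130 for Ephb4). Without cells carrying 2 or more markers of other types, Efnb2 was at -1.08 (adjusted p = 0.157) and Ephb4 at 0.63 (adjusted p = 0.519). That setting also dropped RW 2 and aN1aN2 3, whose EC3 sums then held under 20 cells. The calls also depended on single samples. Efnb2 was no longer called without RW 1 (-0.92), aJ1aJ2 3 (-0.94), aJ1aJ2 4 (-0.95), aN1aN2 1 (-0.75) or aN1aN2 2 (-0.87), with adjusted p from 0.0539 to 0.118. Ephb4 was no longer called without any 1 of the RW or aN1aN2 samples or without aJ1aJ2 4, at log2 changes of 0.78 to 0.99 and adjusted p from 0.0501 to 0.137. Within EC3, Gja5 averaged 40.5 CPM in RW and 38.8 in aN1aN2 (7.86 to 82.7) on the joint scale. The lymphatic markers of EC3 summed to between 2253 and 4490 CPM in RW and between 1249 and 3087 with receptor blockade. Its mural markers summed to between 2847 and 4617 and between 774 and 1025 in the same groups. Fibroblast markers of EC3 ran from 240 to 1753 CPM in RW and from 92.8 to 126 with receptor blockade, and erythroid markers from 120 to 306 and from 743 to 1130. The part of these transcripts in the EC3 values was not tested beyond leaving out those cells.

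EC2, with Cldn5 at 1029 CPM and little Plvap (136 CPM), lacked RW 3 and aJ1aJ2 1, and 1 of its 5 tested members passed, against 15.5% of 2508 genes. That was Aplnr, at 312 and 160 CPM in RW, 90.5 and 111 in aJ1aJ2, and 83.8, 12.2 and 0 in aN1aN2 (log2 change -2.65, SE 0.57, adjusted p = 0.00477). All receptor-blocked sums were below both controls, and the call was lost without RW 1 (-2.04, adjusted p = 0.0784) and without cells carrying 2 or more markers of other types (-1.02, adjusted p = 0.284). Without aN1aN2 1 the log2 change was -4.94. Leaving out the marked cells also dropped aN1aN2 3, whose EC2 sum then held under 20 cells.

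**Figure D4:**
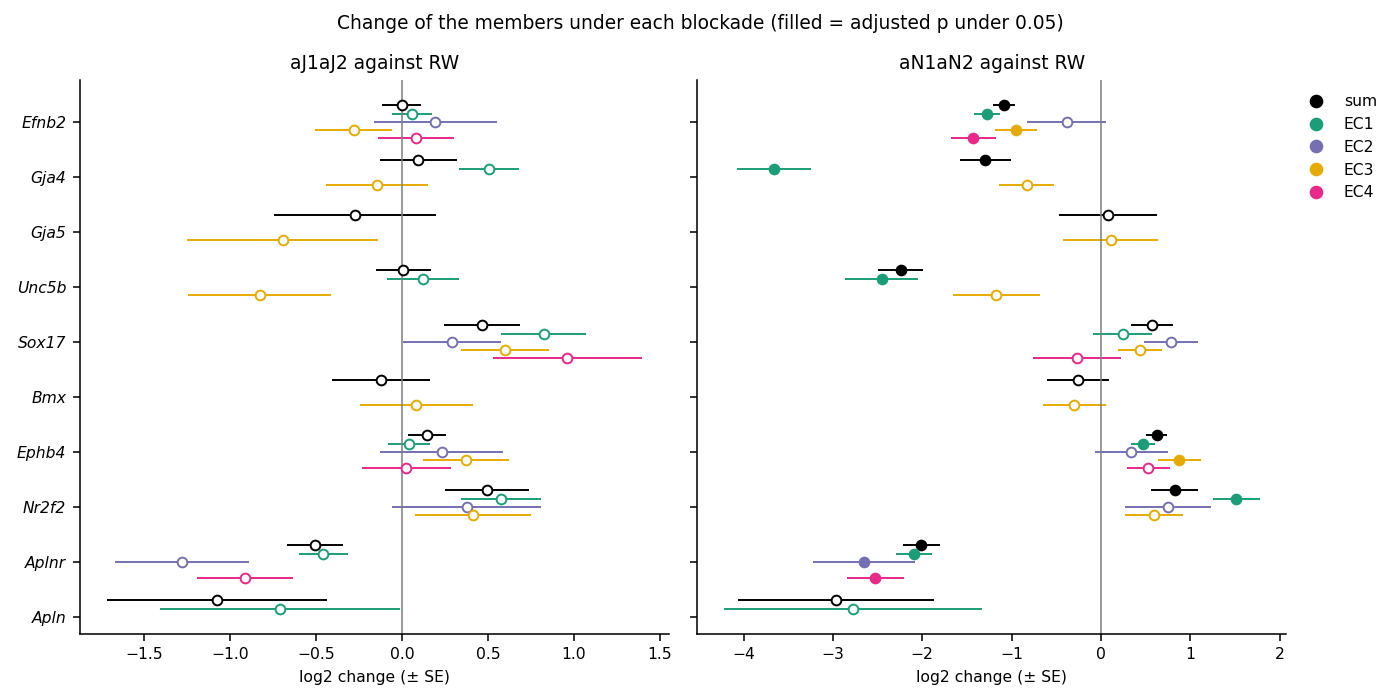
Log2 change of each gene (horizontal axis, with 1 SE to either side) in the summed endothelium and in EC1 to EC4, for aN1aN2 against RW and aJ1aJ2 against RW, with filled points where the adjusted p was under 0.05. Efnb2 lies to the left in every label for aN1aN2 against RW, while the points for aJ1aJ2 against RW stay unfilled.

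The balance of the ephrin pair shifted in single sums. The ratio of Efnb2 to Ephb4 UMIs within a sum is free of scaling between samples, although its absolute size says nothing of which transcript is more abundant. In EC1 the ratio ran from 1.56 to 1.70 in RW, 1.58 to 1.77 in aJ1aJ2 and 0.414 to 0.537 in aN1aN2. EC4 ranged from 1.21 to 2.04, 1.49 to 2.38 and 0.338 to 0.643, and EC3 from 2.00 to 2.38, 1.19 to 1.81 and 0.357 to 0.926. In these 3 labels the receptor-blocked sums lay below all others, and in EC3 the ligand-blocked sums lay between the other groups. EC2 differed, with 1.05 to 1.47, 1.07 to 1.36 and 0.435 to 1.40, which overlapped.

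**Figure D5:**
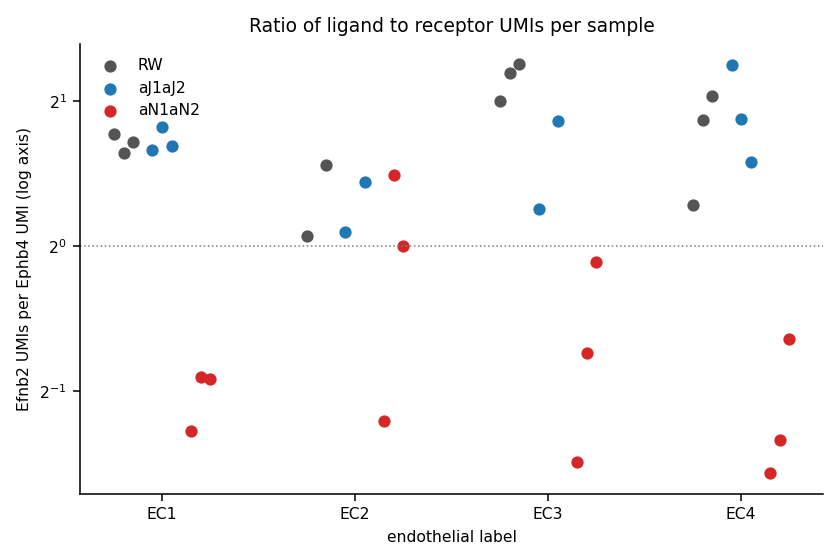
Ratio of Efnb2 to Ephb4 UMIs (vertical axis, log scale) in each sum of EC1 to EC4, 1 point per sample, coloured by antibody group. The aN1aN2 points lie between 0.338 and 0.926 in EC1, EC3 and EC4 and reach 1.40 in EC2.

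Whether a change differed between labels was tested by its difference from the change in EC1. Between aN1aN2 and RW, Gja4 was the only member to pass, with EC2 above EC1 by 5.76 (SE 1.00, adjusted p = 7.54e-05) and EC3 above EC1 by 2.78 on the log2 scale (SE 0.52, adjusted p = 0.00418). The shares of all genes passing were 1.36% for EC2 and 2.39% for EC3, and 0.493% for EC4, where no member passed or had an unadjusted p under 0.05. DESeq2 called 1 such difference between aN1aN2 and RW and 1 between aN1aN2 and aJ1aJ2. Between aJ1aJ2 and RW neither tool called any, where 0.507%, 0% and 0.0528% of genes passed for EC2, EC3 and EC4 by edgeR. Sox17 in EC2 and Gja4 in EC3 and EC4 had an unadjusted p under 0.05 there. Between aN1aN2 and aJ1aJ2 the Gja4 differences were 6.08 for EC2 (adjusted p = 4.42e-06) and 3.33 for EC3 (adjusted p = 0.00177), and Sox17 in EC2 also passed at 1.22 (SE 0.33, adjusted p = 0.0401), where 1.06%, 0.853% and 0.158% of genes passed for EC2, EC3 and EC4. The Sox17 difference no longer passed with no filter (1.10, adjusted p = 0.131) or without aJ1aJ2 3 (1.19), aJ1aJ2 4 (1.17), aN1aN2 1 (0.97) or aN1aN2 2 (1.20), with adjusted p from 0.202 to 0.310 for these 4 samples. Gja4 in EC3 averaged 251 CPM in RW (143 to 306) and 136 in aN1aN2 (110 to 161) on the joint scale, against 61.1 and 4.45 in EC1. Gja4 thus remained present in EC3 while it was nearly lost from EC1.

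The EC2 value rests on few UMIs, and the EC2 cells with Gja4 mostly held mural markers too. Gja4 had 4 and 0 UMIs in the EC2 sums of RW, 9 and 2 in aJ1aJ2, and 4, 1 and 8 in aN1aN2. Of the 17 EC2 cells with a Gja4 UMI, 16 (94.1%) had at least 2 mural markers, against 18.1% of the other EC2 cells. The cells with Gja4 were deeper, with a median of 11550 UMIs against 2651, and deeper cells show more markers. Per UMI, mural markers summed to 7120 CPM in the cells with Gja4 and 1559 in the others. Whether the mural transcripts account for the EC2 value was not tested. The mural marker sum of EC2 was 608 to 2335 CPM in RW, 1081 to 2395 in aJ1aJ2 and 1408 to 7710 in aN1aN2. In EC3, 24.7% of the 162 cells with Gja4 and 10.3% of the 203 without had 2 or more mural markers, at median depths of 5645 and 3915 UMIs. With cells carrying 2 or more such markers of other types left out, the EC2 difference between aN1aN2 and RW was -0.98 (adjusted p = 0.975). The EC3 difference was 3.09 (adjusted p = 0.0532), so its size held and its call did not. This setting also dropped whole sums that then held under 20 cells, aN1aN2 3 from EC2, and RW 2 and aN1aN2 3 from EC3. Losing the marked cells and losing these sums cannot be told apart here. Against aJ1aJ2 the EC2 difference then had no usable estimate (adjusted p = 1), and the EC3 difference was 3.03 (adjusted p = 0.0970). Without aN1aN2 3 the differences from RW were 4.57 for EC2 (adjusted p = 0.0838) and 2.52 for EC3 (adjusted p = 0.0574). Without RW 1, which leaves RW 2, with no Gja4 UMI, as the RW sample with enough EC2 cells, the fitted EC2 difference was 11.4.

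Under ligand blockade no fate gene passed the test. In the summed endothelium 0 of the 10 members passed between aJ1aJ2 and RW by edgeR's quasi-likelihood test, against 1.16% of all 10661 genes. Only Aplnr had an unadjusted p under 0.05, and DESeq2 also called 0. Efnb2, Gja4 and Unc5b had log2 changes of -0.00, 0.10 and 0.01, with overlapping samples in each case. Aplnr was lower in every ligand-blocked sample than in every control, at 123 ± 16.6 against 172 ± 15.9 CPM (SD, n = 3), with a log2 change of -0.51 (SE 0.17) that did not pass (adjusted p = 0.182). Sox17 measured 92.2, 184 and 167 CPM in aJ1aJ2 against 94.7 to 118 in RW, with sample 1 below all the controls and the other 2 above them (log2 change 0.47, adjusted p = 0.377). Nr2f2 overlapped (log2 change 0.49, adjusted p = 0.399), and passed with equal numbers of cells per sample (1.04, adjusted p = 0.0495). Ephb4 did not overlap, with 164, 151 and 169 CPM in aJ1aJ2 above 138 to 150 in RW, but the log2 change was 0.15. Bmx and Gja5 changed by -0.12 and -0.27 and Apln by -1.08 on 19 against 53 UMIs (adjusted p = 0.506).

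One sample weighed on these values, and so did the filters on low counts and on cells. The aJ1aJ2 sample 1 came from series A, and without it Sox17 and Aplnr passed in the summed endothelium (log2 changes 0.68 and -0.61, adjusted p = 0.0398 and 0.0496). Both also passed with no filter on low counts (0.45 and -0.53, adjusted p = 0.0459 and 0.00748). Sox17 passed as well without cells carrying 2 or more markers of other types (0.96, adjusted p = 0.0307). The sample was also the ligand-blocked one with the fewest endothelial UMIs, 986642 against 2549071 and 2496623. Its 234 Efnb2 UMIs, against 614 and 644, gave a level of 232 CPM, against 239 and 265. In the 4 samples of series B alone, RW 1 and 2 against aJ1aJ2 3 and 4, Sox17, Aplnr and Apln passed (log2 changes 0.71, -0.60 and -2.54, adjusted p = 0.00886, 0.0135 and 0.0128). Within EC1, 0 of 8 tested members passed between aJ1aJ2 and RW, where 1.42% of genes did, and 4 (Gja4, Sox17, Nr2f2 and Aplnr) had an unadjusted p under 0.05. Gja4 in EC1 measured 102, 79.5 and 68.4 CPM in aJ1aJ2, all above the 45.6 to 66.0 of RW (log2 change 0.51, adjusted p = 0.183), and Aplnr was at 180, 136 and 120 CPM (log2 change -0.46, adjusted p = 0.124). In EC2, EC3 and EC4 no member passed either, with 1.91%, 0.0618% and 0.871% of genes passing and 1, 1 and 2 members at an unadjusted p under 0.05. The share of all genes at an unadjusted p under 0.05 was not counted, so these member counts have no background to be read against. DESeq2 called none in the 4 labels.

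The 2 treatments were also compared with each other. In the summed endothelium 5 of the 10 members differed between aN1aN2 and aJ1aJ2, against 13.5% of genes. Efnb2, Gja4, Unc5b and Aplnr were lower under receptor blockade by 1.08, 1.39, 2.25 and 1.51 on the log2 scale (adjusted p from 3.73e-05 to 0.00498). Ephb4 was higher by 0.48 (SE 0.12, adjusted p = 0.0135), a call lost without aJ1aJ2 3 (0.42, adjusted p = 0.0658) or aN1aN2 1 (0.37, adjusted p = 0.0901) and with equal numbers of cells (0.39, adjusted p = 0.0862). In EC1, where 13.6% of genes passed, the same 5 genes and Nr2f2 did. Gja4 was lower there by 4.17 (SE 0.40, adjusted p = 1.87e-07) and Nr2f2 higher by 0.94 (SE 0.26, adjusted p = 0.0174), the latter not without aN1aN2 1 (0.76, adjusted p = 0.151) or with equal numbers of cells (0.73, adjusted p = 0.297). The EC1 call of Ephb4 (0.43, adjusted p = 0.0387) was lost in most fits that left out 1 sample. In EC4, where 17.2% of genes passed, Efnb2 (-1.51, and -0.97 with adjusted p = 0.0822 at equal numbers of cells) and Aplnr (-1.61) were lower, and so was Sox17 (-1.23, adjusted p = 0.0408). The Sox17 groups overlapped, with 19.8, 161 and 110 CPM in aJ1aJ2 and 50.7, 50.5 and 47.6 in aN1aN2. Its call was lost in 7 of 15 alternatives, with DESeq2 (-1.14, adjusted p = 0.247), with no filter (-1.14, adjusted p = 0.0839), without aJ1aJ2 3 (-0.79, adjusted p = 0.369) or 4 (-1.29, adjusted p = 0.104), and without aN1aN2 1, 2 or 3 (-1.24, -1.24 and -1.19, adjusted p from 0.0892 to 0.104). EC2 and EC3 had 10.5% and 1.14% of genes passing and no member among them, with 1 member in each at an unadjusted p under 0.05, where the share of all genes was not counted.

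Other genes of the same fates were taken from 3 fixed lists, which were also chosen with earlier results of these data known. Of 28 further arterial genes tested in the summed endothelium between aN1aN2 and RW, 12 were lower and 5 higher, where 9.44% of all genes were lower and 10.3% higher. The median log2 change of these arterial genes was -0.15, against -0.0015 over all genes. Within EC1, EC2, EC3 and EC4 the arterial median was -0.40, -0.25, -0.49 and -0.31. Nrp1, a VEGF and semaphorin co-receptor, fell from 1604 to 436 CPM (log2 change -1.88, adjusted p = 1.88e-07), and Ltbp4, a binding protein of latent TGF-beta, from 857 to 311 (-1.46, adjusted p = 1.37e-05). Vegfc, a growth factor of the VEGF family, fell from 88.4 to 31.6 CPM (-1.48, adjusted p = 7.58e-05), and Stmn2, a regulator of microtubules, from 170 to 63.3 (-1.44, adjusted p = 0.000121). Of 18 further venous genes tested, 5 were higher and 2 lower, against the same shares of all genes (10.3% and 9.44%), with a median log2 change of 0.32. The venous median was not the same in sign within the labels, at 0.51, -0.53, 0.59 and 0.10 in EC1 to EC4, on 10, 7, 17 and 7 genes tested. Lrg1, a secreted glycoprotein, rose from 98.6 to 557 CPM (log2 change 2.50, adjusted p = 7.61e-06), Ch25h, cholesterol 25-hydroxylase, from 2.76 to 25.4 (3.17, adjusted p = 0.000524), and Vwf, von Willebrand factor, from 66.6 to 163 (1.31, adjusted p = 0.00497). Eng, the TGF-beta co-receptor endoglin, went against its list and fell from 1023 to 591 CPM (-0.79, adjusted p = 0.000206).

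Genes of tip cells, the leading cells of a sprout and a known source of apelin, moved in both directions. The list shares Cxcr4, Dll4 and Igfbp3 with the arterial one. Of 20 tested, 8 were lower and 5 higher, beside 9.44% and 10.3% of all genes, with a median log2 change of -0.21. In EC1 to EC4 the tip cell median was -0.49, -0.37, -0.29 and -0.60. The VEGF receptor Kdr fell from 1765 to 395 CPM (-2.16, adjusted p = 1.62e-08), the proteoglycan Esm1 from 1327 to 143 (-3.21, adjusted p = 1.81e-07) and the basement membrane collagen Col4a1 from 1390 to 754 (-0.88, adjusted p = 0.000649). Kdr is also among the 12 general endothelial markers, of which 3 were higher and 2 lower, beside the same shares of all genes. Pgf, placental growth factor, rose from 4.30 to 27 CPM (2.59, adjusted p = 0.000536). Between aJ1aJ2 and RW, 1 of the arterial genes, none of the venous genes and 3 of the tip cell genes passed, all of them lower, against 66 lower and 58 higher among all genes. The venous list gave 0 calls in that comparison by edgeR, with 4 of its 18 tested genes at an unadjusted p under 0.05. The share of all genes at that unadjusted threshold was not counted.

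The genes whose level most resembled each member were found over the 33 sums of label and sample, as Pearson correlations of log2 CPM over 8580 genes, and they carry no test, since sums of 1 sample share a library. Sox17 was closest to Tppp3 (r = 0.90) and S100a6 (0.87), Bmx to Gpm6a and the lymphatic chemokine Ccl21a (0.95 each), and Nr2f2 to Cpe (0.88) and Fth1 (0.84). Aplnr was closest to Parp14 and Kdr (0.90 each). For Efnb2 the closest were Gm45074 (0.85) and Hsp90b1 (0.84), the latter also closest to Unc5b (0.84), followed by Gnas (0.83). Gja4 resembled Sncg (0.81) and Sgk3 (0.78), and Gja5 resembled Fbn1 (0.82) and Atp2a3 (0.80). Ephb4 was closest to Sh3tc1 (0.81) and Ada (0.79), and Apln to Sparc and Mmp15 (0.70 each).

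Outside the endothelium most members were scarce. Endothelial cells held 79.2 to 95.1% of all UMIs of Efnb2, Gja4, Gja5, Unc5b, Sox17, Bmx, Ephb4 and Aplnr, 60.2% of those of Apln and 35.5% of those of Nr2f2. Nr2f2 was highest in the label SM, at 460 CPM, and stood at 166 in label S, 141 in label F, rich in the fibroblast gene Dcn (23949 CPM), and 62.1 in Th1. In Th1 it measured 52.1, 49.5 and 47.1 CPM in RW, 52.2, 72.6 and 73.5 in aJ1aJ2, and 77.7, 95.5 and 70.7 in aN1aN2. The receptor-blocked and control sums did not overlap, and the mean rose from 49.6 ± 2.48 to 81.3 ± 12.8 CPM (SD, n = 3; log2 change 0.73, SE 0.15, adjusted p = 0.00180), where 34.4% of genes passed. Under ligand blockade the log2 change from RW was 0.42 and did not pass (adjusted p = 0.235, where 0.612% of genes passed). Of the 3 members with enough counts in Th1, Nr2f2 was the 1 that passed, a share near that of all genes. Efnb2 (-0.35, adjusted p = 0.175) and Ephb4 (0.44, adjusted p = 0.0966) did not pass there between aN1aN2 and RW.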

How the data were processed

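Thyroid cells of 9 samples, pools of 6 mice each, were profiled by 10x Genomics 3′ single-cell RNA sequencing. The authors deposited 1 table of UMI counts per gene and cell (63121420 UMIs, 500 to 131347 per cell) and a table of cell labels, in which 2619 lines with a shifted column were realigned. Reads were processed with Cell Ranger on GRCm38, per the submitters' processing notes, and the version is not given in the sources used here. Symbols matched 52403 of the 52636 genes and 233 had none.

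Counts were summed per label and sample (at least 20 cells) and tested with edgeR 4.0.16 (R 4.3.3, TMM scaling, filterByExpr, quasi-likelihood F-test, Benjamini-Hochberg adjustment over all genes, threshold 0.05), with every sample that had enough cells in 1 fit per label (9 in the summed endothelium, EC1, EC4 and Th1, 8 in EC3 and 7 in EC2). Differences between labels were tested with sample as a block. DESeq2 1.42.0 was an alternative. The tests were checked on simulated data, with an assumed spread between samples. For aN1aN2 against RW in the summed endothelium, 35% of simulated 2-fold changes and 92% of 4-fold changes were called. Of the unchanged genes among the 10660 tested, 9 were called. Most changes of 2-fold would thus be missed in such data, so a gene that did not pass may still have changed. CPM are UMIs over the TMM-adjusted total, times 1e+06. Intervals are exact 95% intervals for counting error only.

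The members and gene lists were chosen with earlier results of these data known. The genes named are all members, up to 4 genes per list with the smallest p among those passing against RW, and the 2 genes most correlated with each member (mean of at least 10 CPM). The GGGCGG and CCAAT letters, the lymphatic split and the co-detection pairs were added after the data were seen. No doublet caller was run, and cells with at least 2 markers of other types were left out as an alternative. Libraries shared 15 of 10171 barcodes. Replicates differed by more than counting noise (chi-square per degree of freedom of 1.77 to 7.74), so none was a duplicate. RW 1 and 2 share replicate numbers with aN1aN2 1 and 2, and the correlation of their deviations was -0.014. Figures were drawn with matplotlib 3.10.9.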

Additional observations from a re-analysis of the deposited data

Results flagged for a closer look

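The change of Gja4 between aN1aN2 and RW differed between labels by the test of the difference itself, with EC2 above EC1 by 5.76 and EC3 above EC1 by 2.78 on the log2 scale. Without cells carrying 2 or more markers of other types these became -0.98 (adjusted p = 0.975) and 3.09 (adjusted p = 0.0532), and without aN1aN2 3 they became 4.57 (adjusted p = 0.0838) and 2.52 (adjusted p = 0.0574). The first of these settings also dropped aN1aN2 3 from both labels and RW 2 from EC3, since those sums then held under 20 cells. Measured against aJ1aJ2, the same differences of Gja4 were 6.08 for EC2 and 3.33 for EC3, and neither passed without cells carrying those markers (adjusted p = 1 and 0.0970). The change of Sox17 between aN1aN2 and aJ1aJ2 was 1.22 higher on the log2 scale in EC2 than in EC1, also by that test, a call lost with no filter on low counts (adjusted p = 0.131) and without aJ1aJ2 3, aJ1aJ2 4, aN1aN2 1 or aN1aN2 2 (adjusted p from 0.202 to 0.310). The causes of these differences were not tested.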

How the results depend on the processing

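Counts of members called in the summed endothelium between aN1aN2 and RW (6) and between aN1aN2 and aJ1aJ2 (5), and in the 4 labels between aN1aN2 and RW (11), stayed within 1.5 times under every alternative run. Between aJ1aJ2 and RW the count in the summed endothelium was 0. It became 2 with no filter on low counts, 3 in series B alone, and 1 with equal numbers of cells or without cells carrying markers of other types, and leaving out single samples gave 0 to 2, with aJ1aJ2 1 as the sample that raised it. In the 4 labels the count was also 0. It became 2 with no filter, 3 in series B alone and 1 with at least 50 cells per sum, and leaving out single samples gave 0 to 3. Between aN1aN2 and aJ1aJ2 the labels gave 9 calls, and 5 with equal numbers of cells.

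Calls of a difference between labels were 2 for aN1aN2 against RW. They became 1 with DESeq2 and 0 without cells carrying markers of other types, with 0 to 2 when single samples were left out. For aN1aN2 against aJ1aJ2 they were 3, and became 1 with DESeq2 and 1 without cells carrying markers of other types. With at least 50 cells per sum too few samples of EC2 and EC3 remained. Only EC4 could then be tested against EC1, so that setting says nothing about the called differences. Outside the endothelium the counts of 0, 1 and 0 (aJ1aJ2 against RW, aN1aN2 against RW, aN1aN2 against aJ1aJ2) became 3 and 1 for the last pair of contrasts with no filter, and leaving out single samples gave 0 to 1, 1 to 3 and 0.

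Reversals of sign touched values that had not passed, except the difference of Gja4 between EC2 and EC1, and most were for aJ1aJ2 against RW in the summed endothelium. Efnb2 became 0.0039 with only the groups compared, 0.00095 with series as a term, 0.015 in cells of at least 1000 UMIs, 0.035 with equal cell numbers, 0.093 without cells carrying markers of other types, 0.068 without cells carrying lymphatic markers and 0.057 in EC1 alone, and -0.060 to 0.029 when single samples were left out. Gja4 became -0.054 without lymphatic cells and -0.063 to 0.32 leaving out single samples. Unc5b became -0.013 with no filter, -0.19 in series B and -0.095 to 0.17 leaving out single samples. Bmx became 0.19 with equal cell numbers, 0.38 without cells carrying markers of other types and -0.38 to 0.094 leaving out single samples, and Nr2f2 became -0.15 without cells carrying markers of other types. For aN1aN2 against RW, Gja5 became -0.016 without lymphatic cells and -0.95 to 0.67 leaving out single samples, and Bmx became 0.43 without cells carrying markers of other types and -0.76 to 0.099 leaving out single samples. The difference of Gja4 between EC2 and EC1 became -0.98 without those cells. The causes were not tested.

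With replicate number as a block (RW 1 and 2 with aN1aN2 1 and 2), 8 members were called in the summed endothelium, Sox17 (0.58) and Apln (-3.81) among them, the latter also called in these 4 samples without the block (-3.80), and 11 in the labels, and Ephb4 in EC3 was not called (0.87, adjusted p = 0.151). Same-numbered samples did not deviate together, and so few samples cannot settle whether the numbers mark anything shared. Leaving out lymphatic cells, leaving out cells with markers of other types in the test between labels, and the 4 paired samples without the block were chosen after seeing the data. Depth limits Apln and Gja5 most, at 74 and 137 endothelial UMIs in all.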

Other observations

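Among the labels outside the endothelium, the Nr2f2 level of label F (fibroblast genes) overlapped between groups, at 129 to 162 CPM in RW, 102 to 163 in aJ1aJ2 and 85.3 to 156 in aN1aN2. In label SM (smooth muscle genes), Nr2f2 ran from 505 to 775 CPM in aN1aN2 and from 556 to 609 in aJ1aJ2, with 257 CPM in the single RW sum that held enough cells. Gja4 had 565.7 CPM in that RW sum, 95.7 and 130.2 in aJ1aJ2, and 151, 342 and 142 in aN1aN2. With a single RW sum, no comparison of these levels was made. In Th1, whose cells scarcely hold Gja4, its UMIs were 26, 1 and 25 in RW, 6, 14 and 5 in aJ1aJ2, and 1, 0 and 0 in aN1aN2. The RW level there was 20.1 times that of aN1aN2 (95% interval 3.45 to 810, counting error only), although RW 2 had a single UMI.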
